A study of Homo sapiens with 34 samples.

Results

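Transcripts of 8 genes at the junction of phosphoinositide 3-kinase (PI3K) signalling and the forkhead box O (FOXO) transcription factors were followed in 3 human B-cell precursor acute lymphoblastic leukaemia (B-ALL) cell lines. The genes were chosen by symbol from their known roles, with earlier results of these data known: *FOXO1*, *FOXO3*, *FOXO4*, *PIK3IP1*, *PIK3CD*, *PIK3R1*, *INPP5D* and *AKT1*. They are 8 of the 13307 genes listed for all 6 comparisons of the study. The lines were NALM-6, labelled ETV6-PDGFRB, RS4;11, labelled MLL-AF4, and BV-173, labelled BCR-ABL. In each line, lentiviral knockdown with a *CCND3* shRNA was compared with a scrambled shRNA in cells sorted on day 4 after transduction, and 1 µM palbociclib, an inhibitor of the kinases CDK4 and CDK6, was compared with its solvent DMSO after 3 days. The 2 treatments had separate controls. Each of the 12 groups had 3 samples, except the *CCND3* shRNA group of NALM-6 and the DMSO group of BV-173 with 2 each, 34 samples in all. Each fusion is represented by 1 established line, so the fusion and the line cannot be told apart.

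PI3K makes a membrane lipid that recruits AKT, which is then switched on and phosphorylates many proteins. FOXO factors are among them: phosphorylated FOXO proteins leave the nucleus, so an active PI3K pathway turns their target genes down. B-cell precursors depend on a balance between both arms. FOXO1 drives genes of early B-cell identity and of antigen receptor rearrangement, and the δ isoform of PI3K carries signals of the B-cell receptor and its precursor. Since these steps act on proteins and lipids, transcript levels report how much message of each component was present and not how active it was.

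Each table of the authors gives 1 level per group, so a level below has no standard deviation, and the spread among samples and the depth behind it are unknown. The log2 ratio used below is that of the treated over the control level in 1 line. With 1 value per group there was no test within a line, and a gene was counted as past the fold where the levels differed at least 1.5-fold in either direction. Over the lines, limma compared the mean log2 ratio of a treatment with 0, taking the 3 lines as replicates, for 11800 genes with a mean level of at least 10, and a gene was called at a Benjamini-Hochberg adjusted p under 0.05. These p-values measure the spread between lines. The SE given with a mean log2 ratio is that of limma (n = 3 lines). All 8 genes passed the level minimum.

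*CCND3*, which encodes the targeted D-type cyclin, fell with its shRNA in every line. Its level went from 19498 to 4727 in NALM-6 cells, from 16178 to 3353 in RS4;11 cells and from 6619 to 2060 in BV-173 cells. Of the B-cell precursor markers, all 10 were listed in every group, 8 to 10 of them were over a level of 100, and their summed level lay between 57600.6 and 101359. Those under 100 were in RS4;11 alone. There *MME* lay between 2.53 and 6.70, and *DNTT* was at 75.2 with the *CCND3* shRNA and 94.4 with palbociclib. Summed T-cell markers reached at most 7.70, erythroid markers 1.63, epithelial markers 38.8 and myeloid markers 560. The myeloid sum was mostly *CSF1R* in RS4;11 and BV-173, and in BV-173 *CSF1R* was at 145 with DMSO and 513 with palbociclib (summed level 200.1 and 557). Its part in the BV-173 results with palbociclib was not tested. When levels were divided by transcript length and brought to a sum of 1000000 in each group, below called the length-adjusted scale, every gene's log2 ratio moved by −0.25 with the *CCND3* shRNA and −0.24 with palbociclib in BV-173, by −0.12 and −0.15 in RS4;11, and by −0.03 and 0.11 in NALM-6. Ratios below are on the authors' scale, and a direction that changes on the other scale is named where it is given.

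*FOXO1* differed between lines more than between treatments. It is the member of the family that B-cell precursors need for their development, and its level in NALM-6 was 5519 with the scrambled shRNA, 6611 with the *CCND3* shRNA, 4903 with DMSO and 4341 with palbociclib. In RS4;11 the *FOXO1* levels in the same order were 347, 608, 325 and 341. BV-173 lay between them, with 1674, 1569, 1555 and 835. The 4 NALM-6 groups did not overlap the 4 groups of either other line. For this and the like statements on other genes below, the share of all genes with such a separation of groups is not given. They are thus no trait particular to these genes. In such bulk samples, fewer cells of a kind and less RNA per cell cannot be told apart. On the length-adjusted scale, which sets genes and tables side by side although each table was normalized on its own, the mean *FOXO1* level of the 2 controls was 105.9 in NALM-6, 30.1 in BV-173 and 6.46 in RS4;11, a 16.4-fold range.

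The log2 ratios of *FOXO1* had both signs across the lines. With the *CCND3* shRNA its log2 ratio was 0.26 in NALM-6 cells, 0.81 in RS4;11 cells and −0.09 in BV-173 cells. With palbociclib the log2 ratios were −0.18, 0.07 and −0.90, and that of RS4;11 became −0.08 on the length-adjusted scale. In all 3 lines the ratio with the shRNA was above that with palbociclib. The mean log2 ratio was 0.33 ± 0.22 (SE, adjusted p = 0.443) with the shRNA and −0.33 ± 0.22 (SE, adjusted p = 0.280) with palbociclib, neither of which was called. With the line as a block, which takes out what both treatments of a line shared, the adjusted p were 0.0523 and 0.0222. For a treatment mean, the block p-values leave out the spread between lines. A gene with both signs over the lines, such as *FOXO1*, can thus be called. Over all alternatives the adjusted p with palbociclib ran from 0.0222 to 0.839. The difference between treatments was 0.66 ± 0.31 (SE, adjusted p = 0.398), and its adjusted p was 0.0439 with the line block. For a difference, the block compares both treatments within a line, which the fit without it does not. Across alternatives the adjusted p of this difference ran from 0.0439 to 0.770.

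*FOXO3*, a broadly expressed member linked to cell-cycle exit and stress resistance, was higher in the 4 groups of RS4;11 than in any group of the other lines. Its levels there were 1971, 2300, 1838 and 1929 with the scrambled shRNA, the *CCND3* shRNA, DMSO and palbociclib. In NALM-6 the *FOXO3* levels were 906, 1222, 838 and 1216, so both treated groups were above both controls. In BV-173 they were 1053, 958, 1270 and 947, and both treated groups were below both controls. The log2 ratios were 0.43 in NALM-6 cells, 0.22 in RS4;11 cells and −0.14 in BV-173 cells with the shRNA, and 0.54, 0.07 and −0.42 with palbociclib. That of RS4;11 with palbociclib became −0.08 on the length-adjusted scale. Neither mean was called, with 0.17 ± 0.19 (SE, adjusted p = 0.657) and 0.06 ± 0.19 (SE, adjusted p = 0.827), and the second turned to −0.03 on the length-adjusted scale.

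*FOXO4* shares the DNA-binding domain of the family, and its mean control level on the length-adjusted scale lay between 6.57 in BV-173 and 9.17 in NALM-6, a 1.40-fold range. Its levels on the authors' scale were 235, 284, 301 and 320 in NALM-6 cells, 224, 355, 227 and 314 in RS4;11 cells, and 170, 174, 243 and 206 in BV-173, in the order given for *FOXO1*. Both treated groups of RS4;11 were above both controls. With the shRNA the log2 ratios were 0.27, 0.66 and 0.04 for NALM-6, RS4;11 and BV-173, the last becoming −0.21 on the length-adjusted scale, and with palbociclib they were 0.09, 0.47 and −0.24. The means of 0.33 ± 0.19 (SE, adjusted p = 0.368) and 0.10 ± 0.19 (SE, adjusted p = 0.697) were not called.

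**Figure D1:**
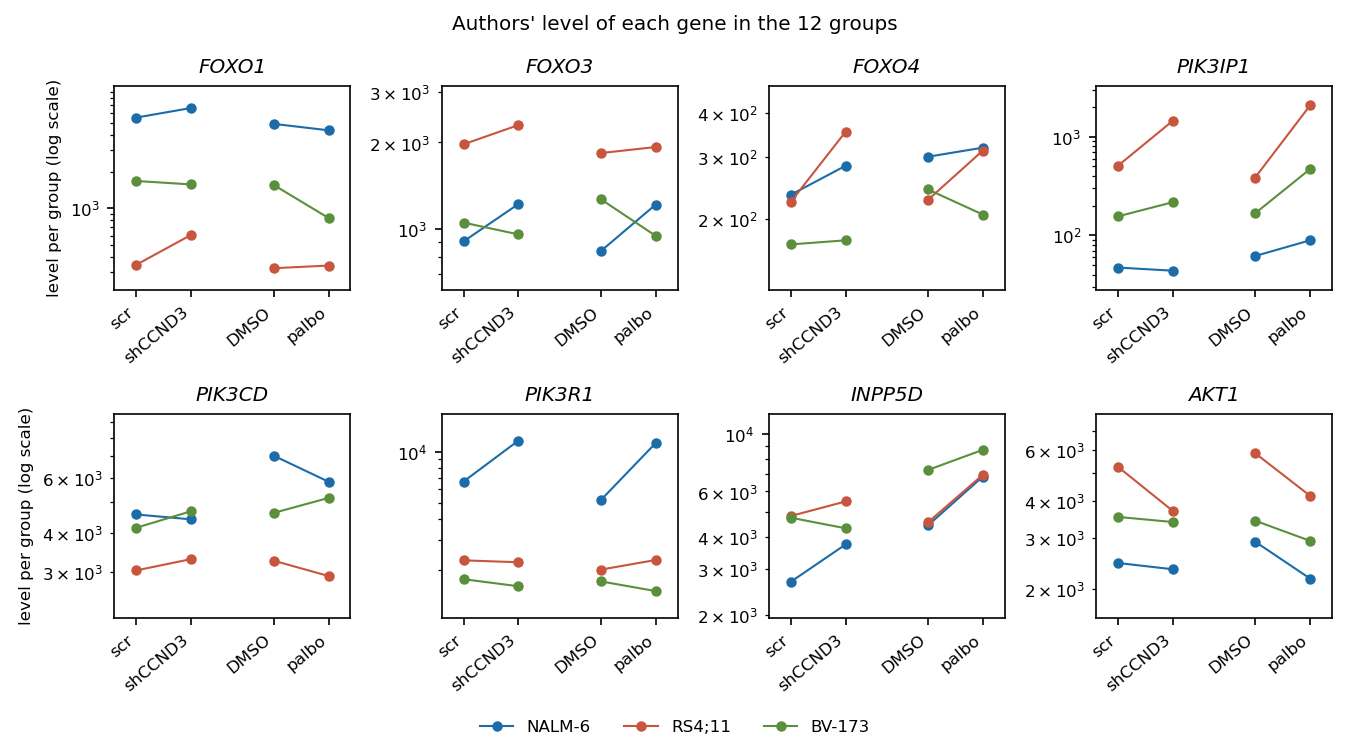
Authors' level (log axis) of each of the 8 genes in the scrambled shRNA (scr), *CCND3* shRNA (shCCND3), DMSO and palbociclib (palbo) groups, 1 point per group and a line joining each treatment to its own control. *FOXO1* is highest in NALM-6 and lowest in RS4;11 in every pair, and *PIK3IP1* shows the reverse order.

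Because the share of a family within a group does not depend on how groups were scaled, the make-up of FOXO transcripts can be compared between all groups. Per kb, *FOXO1* was the main FOXO transcript in NALM-6, where it made up 63.2% to 71.2% of the summed level of *FOXO1*, *FOXO3*, *FOXO4* and *FOXO6*. In RS4;11 *FOXO3* took that place with 57.2% to 62.8%, and *FOXO1* made up 13.9% to 19.3%. BV-173 held 43.2% to 59.9% *FOXO1* and 28.6% to 38.4% *FOXO3*. The *FOXO1* share was 71.2% with DMSO and 63.2% with palbociclib in NALM-6, 52.4% and 43.2% in BV-173, and 13.9% in both groups of RS4;11. With the scrambled and the *CCND3* shRNA it was 14.1% and 19.3% in RS4;11, 68.2% and 71.0% in NALM-6, and 59.9% and 59.7% in BV-173. These shares have no replicate error. *FOXO6*, the remaining family member, had its highest share in NALM-6. It made up 11.8% to 18.1% there, 3.06% to 7.99% in RS4;11 and 0.112% to 0.384% in BV-173.

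**Figure D2:**
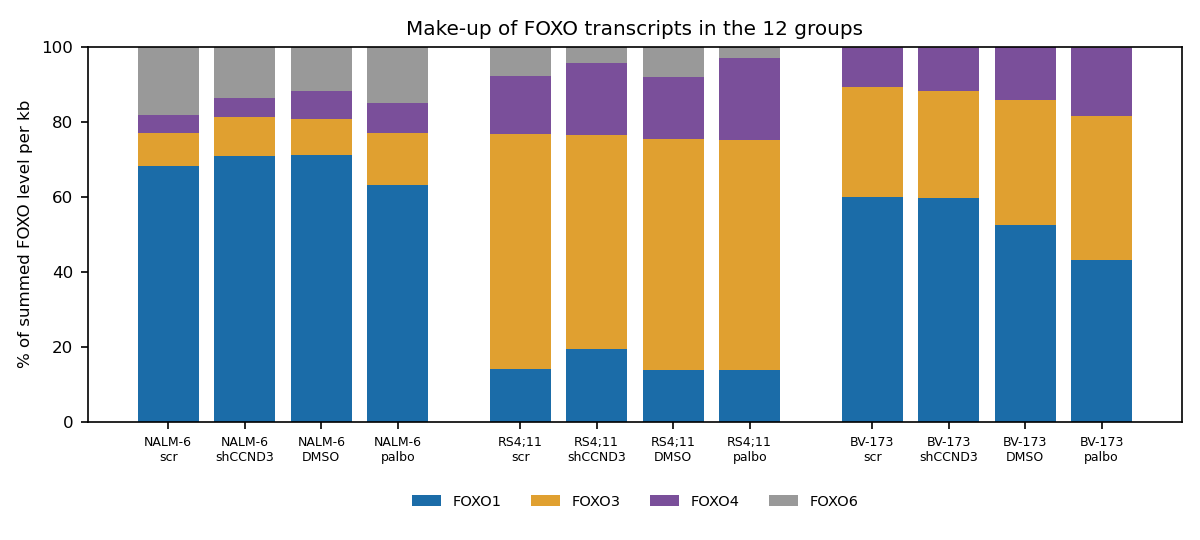
Share of *FOXO1*, *FOXO3*, *FOXO4* and *FOXO6* in the summed FOXO level per kb (percent, stacked bars) in each of the 12 groups, with no replicate error since there is 1 level per group. *FOXO1* takes the largest part in the 4 NALM-6 groups and *FOXO3* in the 4 RS4;11 groups.

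The DNA word GTAAACA, a core recognised by FOXO factors, was looked for on both strands of the promoter windows of RefSeq (GRCh38.p14, 250 bases before to 50 after each start). It lay in 2 of the 18 windows of the 8 genes (11.1%), and in 3.42% of all 35116 windows. The 2 genes were *PIK3IP1* and *FOXO4*, and a window of *CCND3* held it too. These 3 stretches are shown because they are the places where the word sits near a start of a gene followed here. Capitals mark the word or, for *PIK3IP1*, its reverse complement, each sequence being read 5′ to 3′ on the strand of its gene.
*PIK3IP1*: aaagagaggcTGTTTACcagaacagca
*FOXO4*: ccggcgagtgGTAAACAgagacgtcag
*CCND3*: cgcggactttGTAAACActtcgccact
The *PIK3IP1* stretch is chr22:31292456-31292482 on the minus strand and its word begins at position 17 after the start. That of *FOXO4* is chrX:71095864-71095890 on the plus strand, with the word at position 24 after the start, and both lie in the first bases transcribed. The *CCND3* stretch is chr6:42048674-42048700 on the minus strand, and its word begins at position −2 and crosses that start. Each position is counted from the RefSeq start of the window that holds the word. *PIK3IP1* and *CCND3* have more than 1 such start, and from another start the position differs. A match of these letters is a description, and the tables used here hold no binding data.

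*PIK3IP1* had the largest change of the 8 genes. It encodes a transmembrane protein that binds the catalytic subunit of PI3K and inhibits it. In RS4;11 its level was 508 with the scrambled shRNA and 1453 with the *CCND3* shRNA, and 386 with DMSO and 2080 with palbociclib. In BV-173 the levels were 156, 217, 167 and 470 in the same order, and both treated groups were above both controls in these 2 lines. NALM-6 had the lowest *PIK3IP1*, with levels of 47.1, 43.7, 61.6 and 89.0.

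Palbociclib raised *PIK3IP1* in all 3 lines. The log2 ratio was 0.53 in NALM-6 cells, 2.43 in RS4;11 cells and 1.49 in BV-173 cells, with a mean of 1.48 ± 0.39 (SE, adjusted p = 0.0254). The call was lost without RS4;11 (mean 1.01, adjusted p = 0.0757) and without BV-173 (mean 1.48, adjusted p = 0.129), and over all alternatives the adjusted p ran from 0.000269 to 0.129. With the *CCND3* shRNA the log2 ratio was −0.11, 1.52 and 0.48 for NALM-6, RS4;11 and BV-173. That mean of 0.63 ± 0.39 (SE, adjusted p = 0.399) was not called, and its adjusted p was 0.0173 with the line block, within a range of 0.0173 to 0.892 over alternatives. In each line the ratio with palbociclib exceeded that with the shRNA. The shRNA effect less the palbociclib effect was −0.85 ± 0.55 (SE, adjusted p = 0.525), with an adjusted p of 0.0420 with the line block and a range of 0.0420 to 0.756 over alternatives.

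The catalytic subunit p110δ is encoded by *PIK3CD*, and it is the isoform typical of leukocytes. Its levels were 4579, 4419, 7040 and 5819 in NALM-6 cells, 3044, 3306, 3268 and 2921 in RS4;11 cells, and 4157, 4692, 4632 and 5169 in BV-173 with the scrambled shRNA, the *CCND3* shRNA, DMSO and palbociclib. None of its 6 log2 ratios, from −0.27 to 0.17, passed the fold. The 3 positive ones, in RS4;11 and BV-173 with the shRNA and in BV-173 with palbociclib, were negative on the length-adjusted scale (−0.0028, −0.08 and −0.08). The mean log2 ratio was 0.08 ± 0.11 (SE, adjusted p = 0.743) with the shRNA, turning to −0.05 on the length-adjusted scale, and −0.09 ± 0.11 (SE, adjusted p = 0.566) with palbociclib. *PIK3CD* shares 189 exonic bases with *CLSTN1* on the opposite strand, whose level reached 4987. Whether reads were counted by strand is not given in the sources used here, so reads of both genes could not be kept apart in that stretch.

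Among the 4 class I catalytic transcripts, *PIK3CD* was the largest part of the summed level per kb in 11 of 12 groups. It made up 60.6% to 69.2% in NALM-6 and 62.4% to 70.5% in BV-173. RS4;11 had a lower share, from 37.8% to 47.0%, and *PIK3CG*, which encodes the γ isoform, made up 31.5% to 44.2%. With palbociclib in RS4;11 the order of the 2 turned, with 37.8% *PIK3CD* and 44.2% *PIK3CG*, from 44.6% and 32.1% with DMSO. *PIK3CG* rose with palbociclib in all 3 lines by a mean log2 ratio of 0.43 ± 0.12 (SE, adjusted p = 0.0282), a call that was lost on the length-adjusted scale. *PIK3CA* and *PIK3CB*, the widely expressed α and β isoforms, had means of −0.37 ± 0.15 (SE, adjusted p = 0.104) and −0.12 ± 0.12 (SE, adjusted p = 0.459). With the line block, *PIK3CA* was called lower (adjusted p = 0.0108).

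*PIK3R1*, which encodes the regulatory subunit p85α and its shorter forms, had its highest levels in NALM-6 cells under either treatment. Its levels in NALM-6 were 6664 with the scrambled shRNA, 11629 with the *CCND3* shRNA, 5179 with DMSO and 11248 with palbociclib. In RS4;11 the *PIK3R1* levels were 2285, 2227, 2014 and 2296, and in BV-173 1769, 1607, 1717 and 1505. The treated NALM-6 groups thus stood apart from every other group. The log2 ratio was 0.80, −0.04 and −0.14 with the shRNA and 1.12, 0.19 and −0.19 with palbociclib, lines in the same order. The means over lines were 0.21 ± 0.26 (SE, adjusted p = 0.708) and 0.37 ± 0.26 (SE, adjusted p = 0.316). The second was called with the line block (adjusted p = 0.0144, from 0.0144 to 0.998 over alternatives), although its log2 ratios had both signs. Without NALM-6 both means turned, to −0.09 and −0.000715.

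*PIK3R2*, which encodes the other p85 subunit, p85β, rose with palbociclib in the 3 lines by a mean of 0.85 ± 0.15 (SE, adjusted p = 0.00693). With the shRNA its mean was 0.48 ± 0.15 (SE, adjusted p = 0.137), called with the line block (adjusted p = 0.0334). Of the summed level per kb of the 2 genes, *PIK3R1* made up 73.3% to 82.6% in NALM-6. In RS4;11 its share went from 51.8% with DMSO to 47.9% with palbociclib, and in BV-173 from 54.3% to 32.9%. With the shRNA it went from 62.1% to 55.5% and from 58.0% to 48.6% in these 2 lines. The message of these 2 genes was therefore mainly *PIK3R1* in NALM-6 and mainly *PIK3R2* in BV-173 with palbociclib (67.1%). It was close to even in BV-173 with the *CCND3* shRNA (51.4% *PIK3R2*) and in RS4;11 with palbociclib (52.1%). These shares have no replicate error, and *PIK3R1* includes its shorter forms.

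*INPP5D* rose with palbociclib. It encodes SHIP1, the lipid phosphatase of blood cells that removes a phosphate from the product of PI3K. Its levels were 2683, 3743, 4435 and 6855 in NALM-6 cells, 4821, 5490, 4557 and 6961 in RS4;11 cells, and 4751, 4323, 7266 and 8693 in BV-173, in the order scrambled shRNA, *CCND3* shRNA, DMSO and palbociclib. The palbociclib group was the highest of its line in every case. The log2 ratios with palbociclib were 0.63, 0.61 and 0.26, with a mean of 0.50 ± 0.14 (SE, adjusted p = 0.0326). This call was lost on the length-adjusted scale (adjusted p = 0.148), without NALM-6 (adjusted p = 0.118) and without RS4;11 (adjusted p = 0.208), in a range of 0.00448 to 0.208 over alternatives. With the shRNA the log2 ratios were 0.48, 0.19 and −0.14, with a mean of 0.18 ± 0.14 (SE, adjusted p = 0.520).

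The 2 controls of a line already differed in *INPP5D*. On the length-adjusted scale, the log2 ratio of the scrambled over the DMSO level was −0.54 in NALM-6 cells, 0.16 in RS4;11 cells, and −0.63 in BV-173 cells. For comparison, the median size of this difference over the 11800 genes was 0.309 in NALM-6 cells, 0.184 in RS4;11 cells and 0.217 in BV-173 cells.

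*AKT1*, which encodes the most widely expressed AKT kinase, had a negative log2 ratio in all 6 comparisons, as did *PIK3CD* on the length-adjusted scale. None of the *AKT1* ratios passed the fold on the authors' scale, and those of RS4;11 did on the length-adjusted scale (−0.63 with the shRNA and −0.64 with palbociclib). Its levels were 2454 with the scrambled shRNA, 2335 with the *CCND3* shRNA, 2904 with DMSO and 2170 with palbociclib in NALM-6. In RS4;11 the *AKT1* levels were 5256, 3705, 5852 and 4176, both treated groups being below both controls. BV-173 had levels of 3533, 3393, 3429 and 2924. With palbociclib the log2 ratios were −0.42, −0.49 and −0.23, and *AKT1* fell by a mean of 0.38 ± 0.12 (SE, adjusted p = 0.0494). This call stood at the threshold: the adjusted p was 0.0501 with no level minimum, 0.0752 without a trend of the variance, from 0.0763 to 0.199 with each line left out, and 0.0132 with the line block. With the shRNA the log2 ratios were −0.07, −0.50 and −0.06, with a mean of −0.21 ± 0.12 (SE, adjusted p = 0.364). Of the 8 genes, *FOXO1* shares 1352 exonic bases with ENSG00000288542 on its own strand, and *AKT1* shares 663 with the antisense gene ENSG00000258430.

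*AKT2*, whose product acts in insulin signalling, had a mean log2 ratio of 0.22 ± 0.09 (SE, adjusted p = 0.113) with palbociclib, which was not called.

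**Figure D3:**
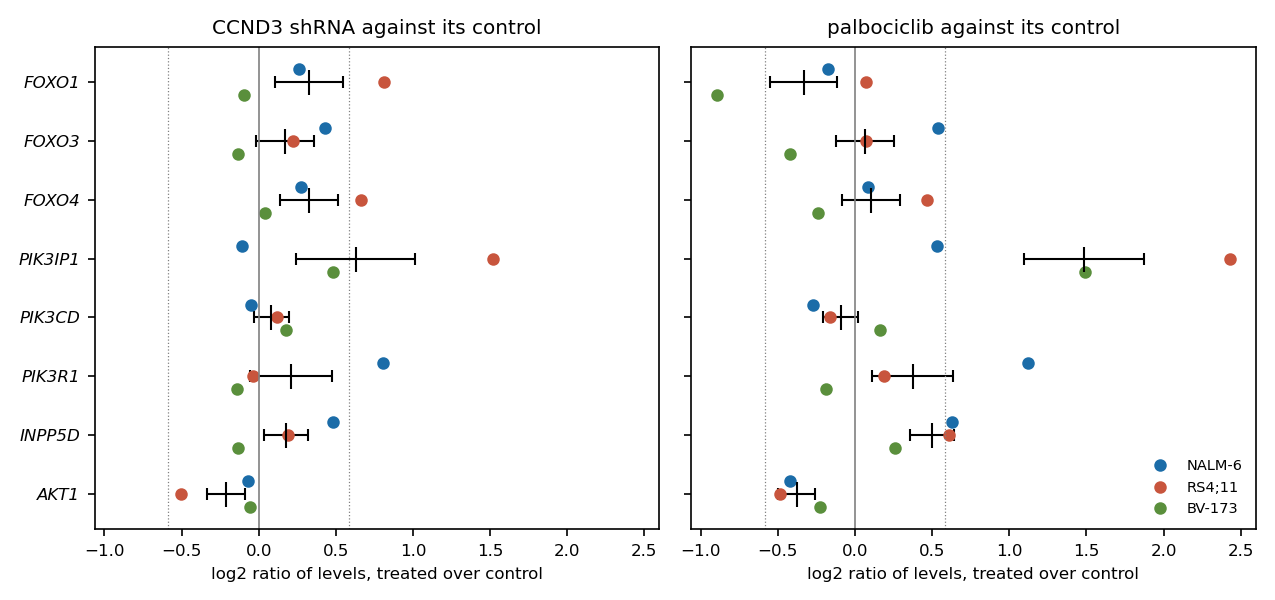
Log2 ratio of the treated over the control level for each gene for NALM-6, RS4;11 and BV-173 (points), with the mean over the lines and its limma SE (black, n = 3 lines) and the 1.5-fold limit (dotted). *PIK3IP1* lies above 0 with palbociclib in every line, *AKT1* below 0 in every comparison, and *PIK3R1* is high in NALM-6.

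Over the 6 comparisons, 10 of the 48 log2 ratios of the 8 genes passed the fold, 9 higher and 1 lower. This split by direction was not set against that of all genes. It was less one-sided on the length-adjusted scale. There *AKT1* in RS4;11 with both treatments and *FOXO3* in BV-173 with palbociclib were also past the fold and lower. With the *CCND3* shRNA in RS4;11, *FOXO1*, *FOXO4* and *PIK3IP1* passed it, 3 of 8, where 20.7% of all genes did. *AKT1* took, on the length-adjusted scale, the place of *FOXO4* (log2 ratio 0.54) there, and that of *INPP5D* (0.46) with palbociclib in the same line. In NALM-6 *PIK3R1* did so with the shRNA, 1 of 8 against 17.9% of all genes, and in BV-173 none did, against 9.14%. With palbociclib 2 of 8 passed in each line, *PIK3R1* and *INPP5D* in NALM-6, *PIK3IP1* and *INPP5D* in RS4;11, and *PIK3IP1* higher and *FOXO1* lower in BV-173. *FOXO3* and *PIK3IP1* joined them in NALM-6 (0.65 and 0.64), and *FOXO3* in BV-173 (−0.66), on the length-adjusted scale. The shares of all genes were 35.9%, 32% and 28.1%, and the members' 25% was below each of them. The median log2 ratio of the 8 genes with palbociclib was 0.31 in NALM-6 cells, 0.13 in RS4;11 cells and −0.21 in BV-173 cells, the second of which was −0.02 on the length-adjusted scale, with a median over all genes between −0.01 and 0.00. With the shRNA it was 0.27, 0.20 and −0.08.

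Over the lines, limma called 3 of the 8 genes with palbociclib, *PIK3IP1* and *INPP5D* higher and *AKT1* lower, where it called 29.3% of all genes. It called none with the *CCND3* shRNA, where 0.00847% of all genes, *CCND3* alone, were called. None of the 8 had an unadjusted p under 0.05 there, against 2464 of the 11800 genes. In this fit the difference between the 2 treatments was called for 0% of all genes and for none of the 8. These also had no unadjusted p under 0.05, against 1598 of all genes. The fit does not use that both treatments were given to the same line. It did not call the difference for the targeted *CCND3* either (−1.65 ± 0.18 SE, adjusted p = 0.138), which limma with the line block did (adjusted p = 0.0147). With the line block the calls were 1 of 8 with the shRNA (*PIK3IP1*, background 15.1%), 5 of 8 with palbociclib (*FOXO1* and *AKT1* lower, *PIK3IP1*, *PIK3R1* and *INPP5D* higher, background 44.8%) and 2 of 8 for the difference (*FOXO1* and *PIK3IP1*, background 3.82%).

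Since several genes moved apart between lines, each line was compared with the mean of the other lines over both treatments, a comparison chosen after the values were seen. None of the 11800 genes reached an adjusted p under 0.05 in this limma contrast, against 2353, 1946 and 2759 with an unadjusted p under 0.05 for NALM-6, RS4;11 and BV-173. *PIK3IP1* in RS4;11 stood 1.38 ± 0.16 (SE, adjusted p = 0.0588) above the other lines and the NALM-6 value was −1.27 ± 0.16 (SE, adjusted p = 0.0610). For *PIK3R1* the NALM-6 value was 1.01 ± 0.13 (SE, adjusted p = 0.0610). *FOXO1* in BV-173 was at −0.74 ± 0.13 (SE, adjusted p = 0.0648) and in RS4;11 at 0.67 ± 0.13 (SE, adjusted p = 0.0974). For *FOXO3* the BV-173 value was −0.60 ± 0.13 (SE, adjusted p = 0.0873). These are log2 differences between the treatment effects of the lines and were not called. Their SE take the 2 treatments of a line, with 1 ratio each, as its replicates. They do not measure a spread among samples of a line.

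Across all 12 groups, the order of the 8 genes by median length-adjusted level was *AKT1* (121.0), *INPP5D* (99.4), *PIK3CD* (87.5), *PIK3R1* (32.7), *FOXO1* (26.8), *FOXO3* (19.1), *FOXO4* (8.20) and *PIK3IP1* (7.60). The ranges of neighbours in this order overlapped, except that the lowest *FOXO3* level (11.7) was above the highest *FOXO4* level (11.1). *PIK3IP1* spanned 37.6-fold, from 2.17 in NALM-6 with the *CCND3* shRNA to 81.4 in RS4;11 with palbociclib. *FOXO1* spanned 24.2-fold and *PIK3R1* 10.03-fold, whereas *AKT1*, *INPP5D*, *PIK3CD*, *FOXO3* and *FOXO4* stayed within 2.78-fold. The 3 genes with the widest span were also those of the 8 whose controls differed most between lines. The span includes these controls, so this is no separate observation. For *PIK3IP1* the mean control level was 20.0 in RS4;11, 7.02 in BV-173 and 2.55 in NALM-6. For *PIK3R1* it was 103.2 in NALM-6 cells, 34.3 in RS4;11 cells and 29.0 in BV-173 cells.

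The rest of the pathway was read through 9 lists with 110 genes, of which 108 were tested. These lists were written from general knowledge, with earlier results of these data known. With the *CCND3* shRNA, limma called no gene of any list but *CCND3* itself, which stands among the FOXO1 target genes. With palbociclib, 5 of the 10 class I PI3K subunits and regulators were called higher and none lower, where 12.8% of all genes were called higher and 16.5% lower, with a list median of 0.64 and 0.01 over all genes. They were *PIK3R5* (mean log2 ratio 1.64 ± 0.22), a regulatory subunit of the γ isoform, *PIK3R3* (1.26 ± 0.18), another p85-like subunit, *PIK3IP1*, *PIK3R2* and *PIK3CG*. Limma called none of the 4 FOXO factor genes with palbociclib, and none had an unadjusted p under 0.05, where 42.4% of all genes did. On the length-adjusted scale, 4 of the 5 PI3K genes were called. That scale lowered the share of rises among all palbociclib calls from 43.6% to 27.8%.

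Of the 8 phosphatases acting on PI3K lipids or AKT, *INPP5D* was called higher and *PHLPP1* lower with palbociclib, 25% of the list where 29.3% of all genes were called. *PHLPP1* encodes a phosphatase that inactivates AKT, and it fell by 0.51 ± 0.13 (SE, adjusted p = 0.0226). Of the 12 AKT and activating kinase genes, 3 were called higher and 2 lower, 41.7% against the 29.3% of all genes. *SGK1* (1.19 ± 0.32), a kinase related to AKT, and *PRR5* (0.66 ± 0.18) and *MAPKAP1* (0.53 ± 0.09), components of mTORC2, were higher, and *AKT1* was among the lower. The *PRR5* call was lost on the length-adjusted scale. The median of this list was −0.05.

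Among the 11 genes of the mTORC1 branch and other AKT substrates, 4 were called higher and 1 lower, 45.5% against the 29.3% of all genes. *AKT1S1* (0.82 ± 0.12), whose product restrains mTORC1, *GSK3B* (0.62 ± 0.17), a kinase that AKT inhibits, *TSC2* (0.60 ± 0.16), a brake on mTORC1, and *RPTOR* (0.42 ± 0.11), a subunit of it, were higher. *EIF4EBP1*, which encodes a translation repressor, fell by 0.99 ± 0.18 (SE, adjusted p = 0.00702). On the length-adjusted scale, *AKT1S1* and *EIF4EBP1* were the calls of this list. Of the 17 receptors and adaptors tested, 5 were called higher and 3 lower, 47.1% of the list. *CD79A* (1.13 ± 0.21), a signalling chain of the B-cell receptor, and the kinase gene *SYK* (0.72 ± 0.15) were among the higher. *IRS2*, an adaptor of the insulin receptor, fell by 0.68 ± 0.21 (SE, adjusted p = 0.0470), a call that was lost on the length-adjusted scale.

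Of the 18 modifiers and carriers of FOXO proteins, 8 were called lower and 2 higher with palbociclib, where 16.5% of all genes were called lower and 12.8% higher, and the list median was −0.21. *STK3* (−1.01 ± 0.16), a kinase that phosphorylates FOXO proteins, *SKP2* (−0.93 ± 0.16), which marks FOXO1 for degradation, *YWHAH* (−0.67 ± 0.17), a 14-3-3 protein of the kind that holds FOXO proteins in the cytoplasm, and *USP7* (−0.67 ± 0.10), a deubiquitinase, had the largest falls. All 8 falls and neither of the 2 rises were called on the length-adjusted scale.

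Of the 23 general targets tested, 4 were called higher and 3 lower with palbociclib. This was 30.4% of the list, near the 29.3% of all genes. The list median was 0.04, and −0.06 on the length-adjusted scale. *SESN3* (1.91 ± 0.20), which encodes a restraint of mTORC1, had the largest rise, with log2 ratios of 1.74, 2.36 and 1.64 for NALM-6, RS4;11 and BV-173. *CITED2* (0.93 ± 0.18), a transcriptional coregulator, and *PINK1* (0.90 ± 0.14), a mitochondrial kinase, were higher too. *BBC3*, which encodes the pro-apoptotic protein PUMA, fell by 0.84 ± 0.18 (SE, adjusted p = 0.0141). With the shRNA, *SESN3* had a mean of 1.26 ± 0.20 (SE, adjusted p = 0.0649) and *SGK1* one of 1.34 ± 0.32 (SE, adjusted p = 0.0851), and neither was called. Both were called with the line block (adjusted p = 0.00312 and 0.0121), which leaves out the spread between lines.

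Limma called none of the 8 FOXO1 target genes of B-cell precursors with palbociclib, where 29.3% of all genes were called. An unadjusted p under 0.05 was found for 3 of them and for 42.4% of all genes, and the list median was −0.23. With the line block 1 was called higher and 2 lower, where 44.8% of all genes were called. On the length-adjusted scale 1, *CCND3*, was called lower. The means of *RAG1* and *RAG2*, which encode the recombinase of antigen receptor genes, were −0.37 ± 0.43 (SE, adjusted p = 0.537) and −0.11 ± 0.40 (SE, adjusted p = 0.857). For *IL7R*, the receptor for interleukin 7, the mean was −0.50 ± 0.28 (SE, adjusted p = 0.218). These means hide a difference between lines. In BV-173 the log2 ratio was −1.93 for *RAG1*, −1.38 for *RAG2* and −1.45 for *IL7R*. It was 0.27, 0.76 and −0.01 in NALM-6, and 0.55, 0.30 and −0.05 in RS4;11. The −0.01 is smaller than the shift of 0.11 between scales there, so its direction depends on the scale. A link to the *FOXO1* level was not tested. *RAG1*, *RAG2* and *IL7R* were named after their values were seen.

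With the line block more list genes were called, as were more of all genes (15.1% with the shRNA and 44.8% with palbociclib). As said for *FOXO1*, these p-values of a treatment mean leave out the spread between lines. With the *CCND3* shRNA the block called 743 of the 11800 genes higher and 1033 lower. Called higher were 2 of 10 class I PI3K genes, 2 of 12 AKT and activating kinase genes and 2 of 11 mTORC1 branch genes. So were 3 of 17 receptors and adaptors and 4 of 23 general FOXO targets, and no gene of these lists was called lower. Modifiers and carriers of FOXO proteins had 1 of 18 called higher and 4 lower. With palbociclib the block called 2507 of all genes higher and 2779 lower. It gave 8 of 23 general FOXO targets higher and 6 lower, and 7 of 10 class I PI3K genes higher and 1 lower. It also gave 1 of 4 FOXO factors, *FOXO1*, lower.

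**Figure D4:**
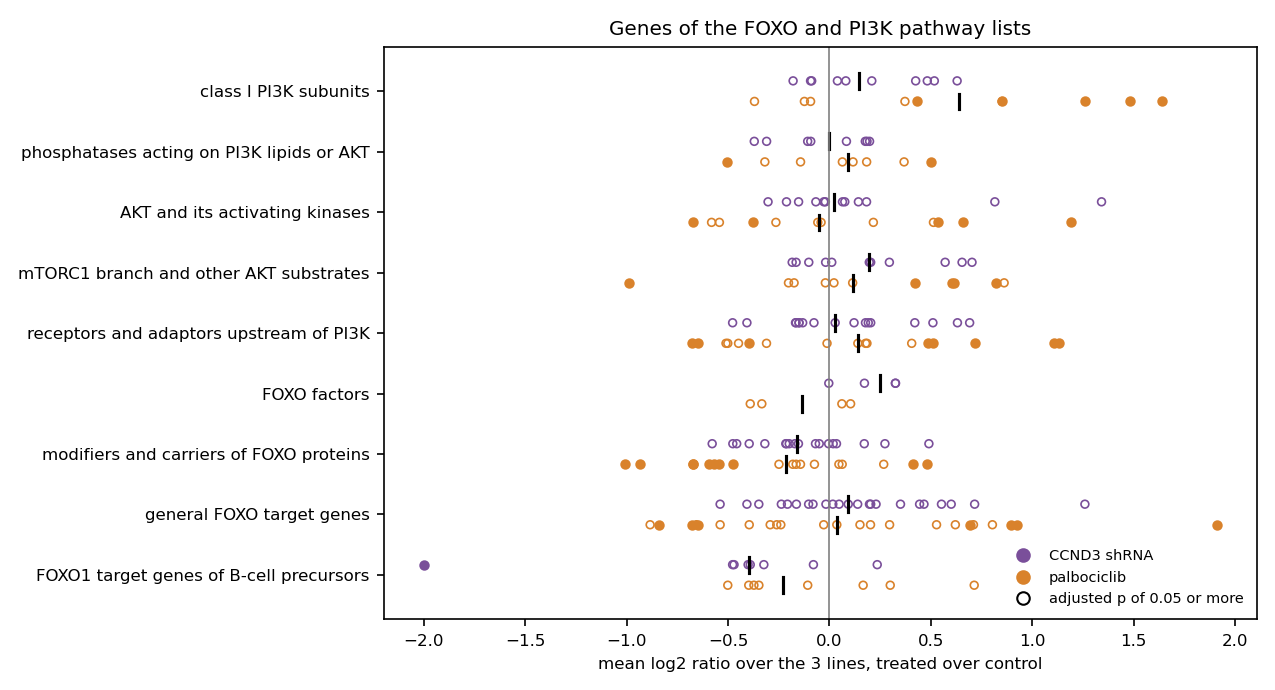
Mean log2 ratio over the 3 lines (x axis) of the genes of 9 pathway lists (rows), with the *CCND3* shRNA above and palbociclib below in each row. Filled points had an adjusted p under 0.05 in limma and black bars are list medians. The list of class I PI3K subunits has a median of 0.64 with palbociclib, and the 2 FOXO target lists lie on both sides of 0.

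The 6 log2 ratios of 1 gene can be set against those of another as a description, with 6 comparisons from 3 lines as the points. *FOXO1* and *FOXO4* followed each other most closely among the 8 genes (Pearson r = 0.931). *FOXO3* ran with *PIK3R1* (r = 0.868), both with their highest log2 ratios in NALM-6. *PIK3CD* ran against *INPP5D* (r = −0.891) and *PIK3R1* (r = −0.842). Its log2 ratios were small, from −0.27 to 0.17, about the size of the shifts between the 2 scales (−0.25 to 0.11). Some of them changed sign on the length-adjusted scale. All r here are on the authors' scale, and how far they hold on the other scale is not given. *FOXO1* and *PIK3IP1* showed no such likeness (r = −0.028).

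Among 10073 genes with a mean level of at least 100, those most like *PIK3IP1* were *SCPEP1* (r = 0.988), a carboxypeptidase gene, *RAC2* (r = 0.988), a small GTPase gene of blood cells, and *HABP4* (r = 0.987). For *FOXO1* they were *RAB9A* (r = 0.990), *RBAK* and *ADPRM*, for *FOXO3* *CHST11* (r = 0.991), *S1PR1* and *ANKRD50*, and for *FOXO4* *FBXO3* (r = 0.995), *ST6GAL1* and *COG3*. *S1PR1*, the receptor for sphingosine 1-phosphate, had log2 ratios of 1.64 and 1.68 in NALM-6, 1.18 and 0.58 in RS4;11 and −0.09 and −0.45 in BV-173 with the shRNA and palbociclib. For *PIK3R1* the closest were *CABLES1* (r = 0.996), *ZNF839* and *SHANK3*. *CABLES1*, which encodes a protein linked to cyclin-dependent kinases, had a log2 ratio of 1.54 with the shRNA and 2.10 with palbociclib in NALM-6, and from 0.31 to 0.82 in the other lines. For *INPP5D* they were *COA5* (r = 0.988), *TRABD* and *LIG4*, for *AKT1* *ZNRF3* (r = 0.989), *DIS3* and *TOR1A*, and for *PIK3CD* *IMPDH2* (r = 0.981), *FAM189B* and *SPG21*. With 6 points and 10073 genes searched, these values are a description only.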

How the data were processed

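RNA-seq of 34 samples in 12 groups was used, and the labels' cell line and treatment set the groups. The authors enriched poly(A) RNA, mapped reads to hg38 with Bowtie2, estimated levels with RSEM and compared groups with DESeq2. The deposited tables hold 1 signal value for each group (the level), which the authors normalized in each pair of groups, for 14763 to 15944 genes. Their log2 fold change, p-value, adjusted p and up or down call were not used. The log2 ratio of the 2 levels equals the listed fold change, so any shrinkage by the authors is kept in it. No level was at 0, and none was given per sample.

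Log2 ratios of 11800 genes were fitted in limma 3.58.1 (R 4.3.3, lmFit and eBayes with a trend), with Benjamini-Hochberg adjustment over all genes. The fit was also run on simulated data in which the ratios of a gene were drawn independently, unlike those of a line here. The outcome of that run is not reported here. The knockdown and palbociclib deviations of the same line correlated across genes (r = 0.466 in NALM-6, 0.487 in RS4;11, 0.482 in BV-173, and negative between lines), so the fit with a line block is given where it changes a call. The alternatives were other folds, level minimums, a pseudocount of 1, centring, no trend and each line left out. The length-adjusted scale (level per kb, summing to 1000000) over genes listed in all tables was added after seeing the data.

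The genes and lists were chosen with earlier results of these data known. Besides the 8 genes, the text names *CCND3*, pathway neighbours, up to 4 called genes per list with 1 sign in all lines, and 3 genes of most similar pattern per member. Some genes of this rule are not reported here. *PIK3CG*, *RPTOR*, *CSF1R*, *MME*, *DNTT*, *RAG1*, *RAG2* and *IL7R*, and *SESN3* and *SGK1* with the shRNA, were named beside these after their values were seen. Figures were drawn in Python 3.11.15 with matplotlib 3.10.9.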

Additional observations from a re-analysis of the deposited data

Results flagged for a closer look

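Some genes moved one way with both treatments in 1 line and the other way with both in another line. These pairs of lines were not tested against each other. *FOXO1* had log2 ratios of 0.81 with the *CCND3* shRNA and 0.07 with palbociclib in RS4;11, and of −0.09 and −0.90 in BV-173, although the 0.07 became −0.08 on the length-adjusted scale. *FOXO3* had log2 ratios of 0.43 and 0.54 in NALM-6 and of 0.22 and 0.07 in RS4;11, against −0.14 and −0.42 in BV-173, and the 0.07 again became −0.08. *PIK3CD* had log2 ratios of 0.17 and 0.16 in BV-173 and of −0.05 and −0.27 in NALM-6, but both BV-173 values were below 0 on the length-adjusted scale (−0.08 for each). *PIK3R1* had log2 ratios of 0.80 and 1.12 in NALM-6 and of −0.14 and −0.19 in BV-173, with the same signs on both scales.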

How the results depend on the processing

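No paired analysis was possible because the levels are per group and carry no replicate number. A block for the cell line could be fitted instead, and it moved the number of the 8 genes called to 1 with the *CCND3* shRNA, 5 with palbociclib and 2 for the difference. Without 1 line, 0 to 1 of the 8 genes were called with palbociclib. At a fold of at least 2, the number past it fell to 0 in NALM-6 and 1 in RS4;11 with the shRNA, and to 1 in each line with palbociclib. At a ratio of at least 5 to 4 it rose to 3 in NALM-6 and 1 in BV-173 with the shRNA, and to 5 in NALM-6 and 4 in RS4;11 with palbociclib. On the length-adjusted scale it was 4 in NALM-6 with palbociclib. Leaving out each line in turn gave means from −0.088 (without NALM-6) to 0.383 for *PIK3R1* with the shRNA, from −0.000715 (without NALM-6) to 0.654 for *PIK3R1* with palbociclib, from −0.177 (without NALM-6) to 0.304 for *FOXO3* with palbociclib and from −0.076 (without RS4;11) to 0.276 for *FOXO4* with palbociclib. On the length-adjusted scale the mean of *FOXO3* with palbociclib turned to −0.032 and that of *PIK3CD* with the shRNA to −0.055. None of these means was called. Of 240 recomputed means, 219 kept direction and call. The causes were not tested. The spread among samples and the depth are unknown, which limits every value in 1 line.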
